A study of Saccharomyces cerevisiae with 12 samples.

Results

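The 45 genes described here encode the vesicle traffic machinery between the endoplasmic reticulum (ER) and the Golgi of the budding yeast *Saccharomyces cerevisiae*. They were chosen by gene name from a table of 6347 features, and all 45 were found under their own names. They comprise 9 genes of the COPII coat and its assembly, 12 genes of the p24 family and other cargo receptors, 11 genes of the COPI coat and its Arf GTPase cycle, 2 genes of retrieval receptors, and 11 genes of membrane tethering and fusion. COPII vesicles carry newly made secretory and membrane proteins out of the ER. COPI vesicles carry escaped ER proteins and recycled receptors back, and SNARE proteins drive the fusion of both with their target membranes. In yeast, many genes of this route are known to be induced when unfolded proteins build up in the ER.

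Both strains were built in D452-2 and carried the plasmid pRS316 with GFP-tagged cdt-1, a sugar transporter gene from the mould *Neurospora crassa* whose product takes up cellodextrins. Strain NC carried the transgene with its endogenous codons and strain OPT a codon-optimized version. Each strain gave 3 mRNA libraries from mid-exponential cultures, described as biological replicates. The series has 12 libraries, and its 6 footprint libraries were not analysed here, so all values are mRNA levels. The labels give neither the promoter of the transgene nor whether the replicates are separate transformants, and p-values therefore measure the spread between these libraries.

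Levels were deposited as normalized RPKM, a read density per length of gene, and each library added up to 999285 to 999421. They are thus shares of a library, and in bulk RNA less of a transcript in every cell and fewer cells that hold it cannot be told apart. The estimated depth on protein-coding genes was 23300000 to 30300000 reads in NC and 32700000 to 41800000 in OPT. The row for cdt-1 with endogenous codons stood at 506 to 567 RPKM in NC and is listed at 0 in OPT, while the optimized row held 420 to 557 RPKM in OPT and is listed at 0 in NC. At a mean of 13.6 to 978 RPKM over the 6 libraries, 38 of the 45 members stood above the median feature. The least covered value of a member rested on an estimated 937 reads, for which counting error alone is 3.27% (ERV15).

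The machinery of ER to Golgi traffic was lower in OPT than in NC in 23 of 45 genes, and none was higher, in limma tests of log2(RPKM + 1) at a Benjamini-Hochberg adjusted p under 0.05. Among all 5982 features tested, 823 or 13.8% were lower and 322 or 5.38% higher at that threshold. At an unadjusted p under 0.05 in the same fit, 33 members were lower and 0 higher. Of all 5982 features, 1438 were lower and 640 higher at this unadjusted threshold. The falls were moderate in size. They ran from 15.4 to 44.7% among the 23 genes, and the median log2 fold change of the 45 members, OPT minus NC, was -0.27 against -0.06 for all features. In 36 members every OPT library lay below every NC library, and 27.6% of all features showed that separation. In no member did every OPT library lie above every NC library, which 13.1% of all features showed. Summed over the 45 genes, the mRNA came to 9765, 10073 and 11494 RPKM in NC replicates 1, 2 and 3 and to 8115, 7682 and 8066 in OPT replicates 1, 2 and 3. That sum was 1.05% of all RPKM in NC and 0.796% in OPT.

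The count depended on scaling and on which library was left out. It was 14 with quantile normalization and 9 with the library medians set equal, while 602 features (10.1%) and 491 (8.21%) in all were lower and 420 (7.02%) and 471 (7.87%) higher. It was 21, 13 and 23 without NC replicates 1, 2 and 3, while 1002, 849 and 1956 features in all were called in either direction, against 1145 with every library. It was 7, 5 and 7 without OPT replicates 1, 2 and 3, while 483, 361 and 524 features in all were called. By role, equal medians left 2 COPII, 4 cargo receptor, 2 COPI and 1 retrieval gene as lower, and no gene of tethering and fusion. Fits without any 1 library kept the call of 5 members, namely ERP2, RET3, ERP1, ERD2 and SFB2, and these 5 also passed with both rescalings. The other 18 lost their call without OPT replicate 2, with adjusted p up to 0.167. Of them SEC12, SVP26, ERV29 and ARF1 passed with both rescalings.

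**Figure D1:**
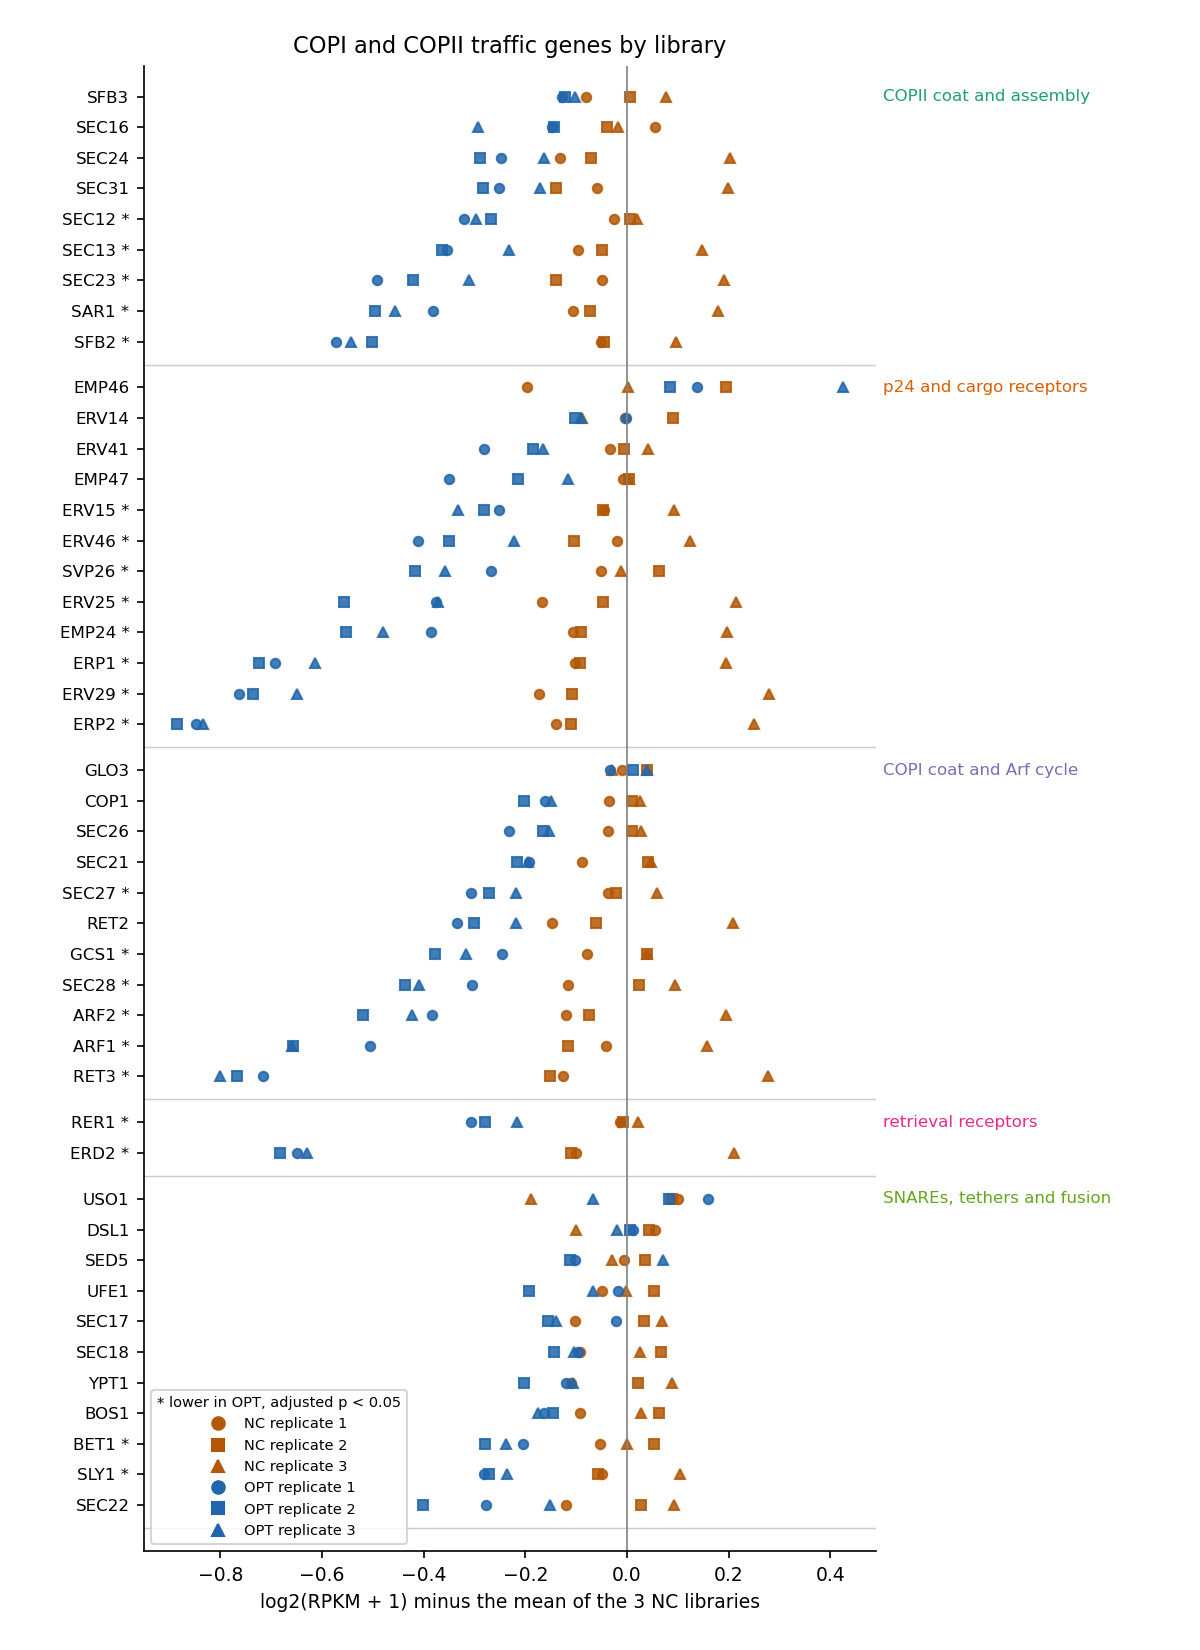
Level of each of the 45 genes in each of the 6 libraries, as log2(RPKM + 1) minus the mean of the 3 NC libraries (orange), with OPT libraries in blue and genes grouped by role. The 23 genes with an asterisk passed the test as lower in OPT, and NC replicate 3 (orange triangles) is the highest library in 21 of them.

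In the COPII coat and its assembly factors 5 of 9 genes fell and none rose, against 13.8% lower and 5.38% higher over all features. The median log2 fold change was -0.29, against -0.06 for all features. All 9 had every OPT library below every NC library, which 27.6% of all features showed. SAR1 encodes the small GTPase that starts coat assembly on the ER membrane (chromosome XVI, 138698 to 139409 in RefSeq build R64). It stood at 543, 556 and 662 RPKM across the NC libraries and at 449, 414 and 426 in the OPT libraries. Its log2 fold change of -0.45 ± 0.10 (standard error) passed at a limma adjusted p of 0.0222, but it did not pass with equal medians or without any 1 OPT library. SEC12, whose product loads Sar1 with GTP, had tight groups, at 58.3, 59.6 and 60.1 RPKM in NC and 47.3, 49.1 and 48.1 in OPT (log2 fold change -0.29, adjusted p = 0.0125). SEC16, a large scaffold at ER exit sites and the least abundant member, stood at 14.6 ± 0.541 and 12.6 ± 0.785 RPKM (SD, n = 3 in each strain), which did not pass (adjusted p = 0.117).

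The coat itself has an inner layer of Sec23 and a Sec24-type protein and an outer cage of Sec13 and Sec31. SEC23, which also activates the GTPase of Sar1, stood at 115, 108 and 136 RPKM in NC and 84.4, 88.6 and 95.8 in OPT, a log2 fold change of -0.41 (adjusted p = 0.0342). SEC13, which also serves the nuclear pore, stood at 239, 247 and 283 RPKM in NC and 200, 198 and 218 in OPT. Its log2 fold change was -0.32 and its adjusted p of 0.0476 lay near the threshold. SEC31 and SEC24 did not pass, at 45.6 ± 5.83 against 38.4 ± 1.60 RPKM and 89.4 ± 11.4 against 75.6 ± 3.44. Their 95% intervals of the log2 fold change ran from -0.46 to -0.01 and from -0.47 to 0.00. Their log2 fold changes of -0.24 and -0.23 became -0.14 and -0.13 without NC replicate 3.

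The Sec24-type proteins bind cargo, and yeast has SFB2 and SFB3 as homologues of SEC24. SFB2 showed the lowest adjusted p of all members. It stood at 40.5, 40.7 and 45 RPKM across the NC libraries and at 27.9, 29.4 and 28.5 in the OPT libraries, a log2 fold change of -0.54 ± 0.06 (standard error; adjusted p = 0.00381). SFB3, needed in yeast for export of the plasma membrane proton pump, stood at 49.9 ± 2.78 and 45.9 ± 0.423 RPKM and did not pass (adjusted p = 0.226). The proportion between the homologues was also set side by side within each library. Since SFB2 itself fell, its ratio to SEC24 is not separate evidence. How often other gene pairs separate in this way was not tested. SEC24 stood at 2.00, 2.08 and 2.28 times SFB2 in NC and at 2.68, 2.47 and 2.78 times SFB2 in OPT, without overlap. A two-sided exact permutation test of this ratio gave p = 0.1, the smallest that 3 against 3 libraries can give, and p = 0.12 after adjustment over 6 ratios. The ratio of SEC24 to SFB3 was 1.79 ± 0.139 in NC and 1.65 ± 0.062 in OPT (exact permutation p = 0.2).

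**Figure D2:**
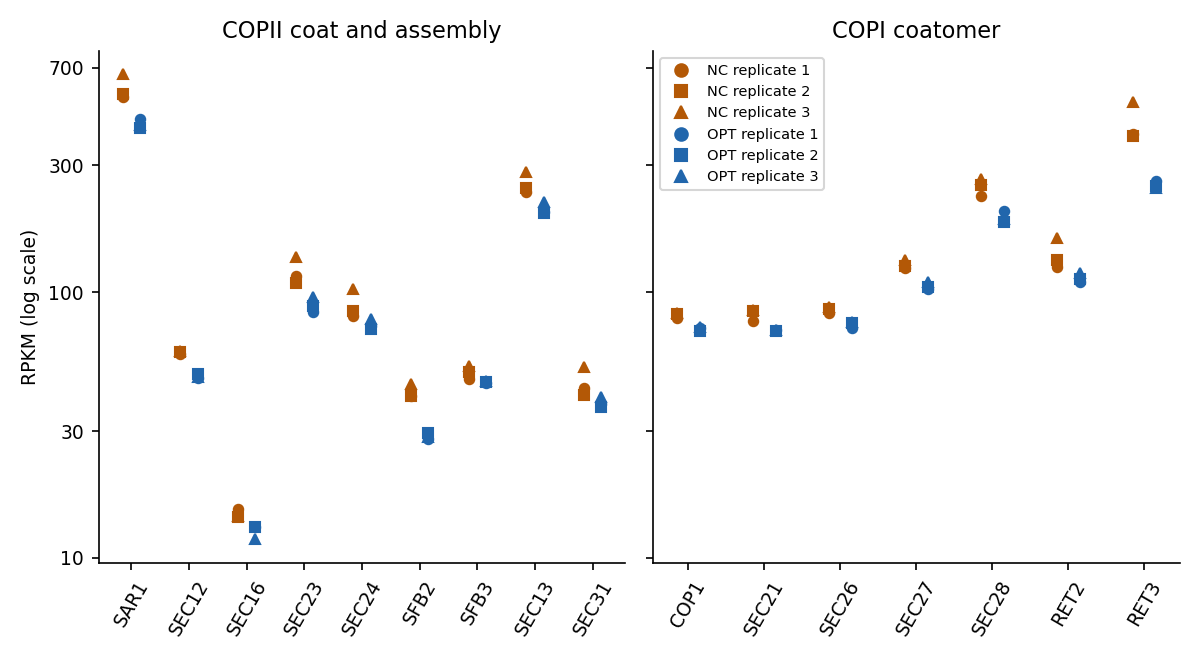
RPKM on a log scale in each library for the COPII genes and for the 7 coatomer genes, NC in orange and OPT in blue. Levels within 1 coat differ more than levels between strains, with RET3 at 5.29 times COP1 in NC, and SFB2 and RET3 show the widest gaps between the colours.

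Among the cargo receptors 8 of 12 genes fell and none rose, against 13.8% lower and 5.38% higher over all features tested. The median log2 fold change was -0.34, against -0.06 for all features. The p24 proteins Emp24, Erv25, Erp1 and Erp2 form a complex that cycles between ER and Golgi and loads GPI-anchored proteins into vesicles. All 4 of their genes fell. ERP2 (chromosome I, 137698 to 138345) changed most of the 45 members. It stood at 209, 213 and 274 RPKM across the NC libraries and at 127, 124 and 129 in the OPT libraries, a log2 fold change of -0.86 ± 0.11 (standard error; adjusted p = 0.00479). Its fold change lay at percentile 0.9 of all features tested. ERP1 (chromosome I, 154065 to 154724) stood at 422, 425 and 519 RPKM in NC and at 280, 274 and 296 in OPT (log2 fold change -0.68, adjusted p = 0.00673). EMP24 and ERV25, the core of the complex and the most abundant of these 4, changed less. EMP24 stood at 682, 689 and 842 RPKM in NC and 561, 500 and 526 in OPT (log2 fold change -0.47, adjusted p = 0.0244), and ERV25 at 596, 648 and 777 in NC and 516, 454 and 517 in OPT (log2 fold change -0.43, adjusted p = 0.0436). NC replicate 3 was the highest library in all 4 genes. In each of them the lowest NC library still lay above the highest OPT library, as in 27.6% of all features.

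The other receptors covered the range from a clear fall to no detectable change. ERV29, the receptor for soluble cargo such as the alpha-factor precursor and carboxypeptidase Y (chromosome VII, 1060658 to 1061590), stood at 250, 262 and 343 RPKM in NC and 166, 169 and 180 in OPT. Its log2 fold change of -0.72 had a standard error of 0.12 (adjusted p = 0.0114). SVP26, an adaptor that brings alkaline phosphatase and Golgi mannosyltransferases into COPII vesicles, stood at 94.8, 103 and 97.4 RPKM in NC and 81.5, 73.3 and 76.4 in OPT (log2 fold change -0.35, adjusted p = 0.0158). Erv41 and Erv46 form a complex that retrieves ER proteins from the Golgi. ERV46 stood at 233, 220 and 258 RPKM in NC and 177, 185 and 203 in OPT and passed (log2 fold change -0.33, adjusted p = 0.0431). ERV41, at 103 ± 2.74 and 88.8 ± 3.84, missed the threshold (log2 fold change -0.21, adjusted p = 0.0566).

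Pairs of related receptors differed in their values. ERV14 encodes a receptor for many plasma membrane proteins, and its mRNA stood at 318, 340 and 300 RPKM in NC and 319, 297 and 299 in OPT. These groups overlapped, and the 95% interval of the log2 fold change ran from -0.24 to 0.11. Its paralogue ERV15 stood at 90.0, 89.8 and 99.1 RPKM in NC and 77.8, 76.2 and 73.5 in OPT and fell (log2 fold change -0.29, adjusted p = 0.0265). The ratio of ERV14 to ERV15 was 3.45 ± 0.385 in NC and 4.02 ± 0.108 in OPT, without overlap between the libraries (exact permutation p = 0.1, adjusted 0.12). EMP46 and EMP47 encode lectin-like receptors for glycoproteins. EMP46 had the highest fold change of the 45 members, at 28.5, 37.7 and 32.9 RPKM in NC and 36.2, 34.9 and 44.4 in OPT, and its groups overlapped (log2 fold change 0.22, adjusted p = 0.283). EMP47 stood at 90.9 ± 0.474 and 77.8 ± 6.38 RPKM and did not pass either (adjusted p = 0.0751). Within libraries EMP47 stood at 2.79 ± 0.376 times EMP46 in NC and 2.03 ± 0.187 times in OPT (exact permutation p = 0.1, adjusted 0.12).

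In the COPI coat and the Arf cycle 6 of 11 genes fell and none rose. Over all features tested, 13.8% were lower and 5.38% higher. The median log2 fold change was -0.28, against -0.06 for all features. Coatomer is recruited to Golgi membranes as a heptamer. Of its 7 subunits the small ones fell most. RET3, the zeta subunit (chromosome XVI, 535018 to 535587), stood at 393, 386 and 521 RPKM across the NC libraries and at 261, 252 and 246 in the OPT libraries, a log2 fold change of -0.76 ± 0.12 (standard error; adjusted p = 0.00913). SEC28, the epsilon subunit, stood at 230, 254 and 266 RPKM in NC and 202, 184 and 188 in OPT (log2 fold change -0.38, adjusted p = 0.0201). SEC27, the beta' subunit, stood at 124, 125 and 132 RPKM in NC and 102, 105 and 109 in OPT (log2 fold change -0.27, adjusted p = 0.0273). The call of SEC27 ended with quantile normalization, and those of SEC28 and SEC27 ended with equal medians, without NC replicate 2 and after dropping any OPT library. COP1, SEC21, SEC26 and RET2, the alpha, gamma, beta and delta subunits, had every OPT library below every NC library but did not pass. Their log2 fold changes were -0.17, -0.20, -0.18 and -0.28, with adjusted p from 0.065 to 0.0967. Of all features, 27.6% had every OPT library below every NC library.

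The subunits of coatomer are present in equal numbers in the complex, whereas the RPKM of their genes differed. How counting and normalization affect RPKM between genes of unlike length was not tested. The 4 long subunits COP1, SEC21, SEC26 and SEC27 stood within a 1.55-fold range of RPKM in NC and a 1.46-fold range in OPT. Over all 7 subunits the range was 5.29-fold in NC, from COP1 at 81.9 to RET3 at 433 RPKM, and 3.52-fold in OPT, from SEC21 at 71.9 to RET3 at 253. The 4 genes SEC13, SEC23, SEC24 and SEC31 of the COPII coat spanned 5.62-fold in NC and 5.35-fold in OPT, with SEC31 lowest and SEC13 highest in both strains.

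Arf1 and Arf2 are the GTPases that recruit coatomer, and their genes are close paralogues. The sources used here do not say how a read matching both was counted, and the split between the 2 genes is therefore uncertain. ARF1 stood at 957, 908 and 1098 RPKM in NC and 693, 624 and 623 in OPT, a log2 fold change of -0.61 ± 0.10 (standard error; adjusted p = 0.00903). ARF2 stood at 1033, 1067 and 1286 RPKM in NC and 860, 784 and 838 in OPT (log2 fold change -0.44, adjusted p = 0.0293). Both genes thus had all OPT libraries below all NC libraries, as 27.6% of all features did. ARF1 stood at 0.877 ± 0.0425 times ARF2 in NC and 0.782 ± 0.0331 times in OPT (exact permutation p = 0.1, adjusted 0.12). Gcs1 and Glo3 are GTPase activators of Arf that share a role in retrieval from the Golgi. GCS1 stood at 137, 149 and 149 RPKM in NC and 122, 111 and 116 in OPT and fell (log2 fold change -0.31, adjusted p = 0.0232). GLO3 stood at 137, 142 and 135 RPKM in NC and 135, 139 and 142 in OPT. Its groups overlapped and the interval of its log2 fold change, -0.13 to 0.15, was narrow. GLO3 stood at 0.953 ± 0.0458 times GCS1 in NC and 1.19 ± 0.0765 times in OPT, without overlap (exact permutation p = 0.1, adjusted 0.12).

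Both retrieval receptors fell, while 13.8% of all features tested were lower and 5.38% higher in OPT. ERD2 encodes the receptor that returns soluble ER proteins with an HDEL tail, Kar2 among them, from the Golgi (chromosome II, 142112 to 142868). It stood at 262, 261 and 326 RPKM across the NC libraries and at 179, 175 and 182 in the OPT libraries, a log2 fold change of -0.65 ± 0.10 (standard error; adjusted p = 0.0076). RER1, which returns ER membrane proteins, stood at 188, 189 and 193 RPKM in NC and 154, 156 and 163 in OPT (log2 fold change -0.27, adjusted p = 0.0248). The groups were well apart in both genes, but the call of RER1 ended with both rescalings, without NC replicate 2 and after dropping any OPT library.

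**Figure D3:**
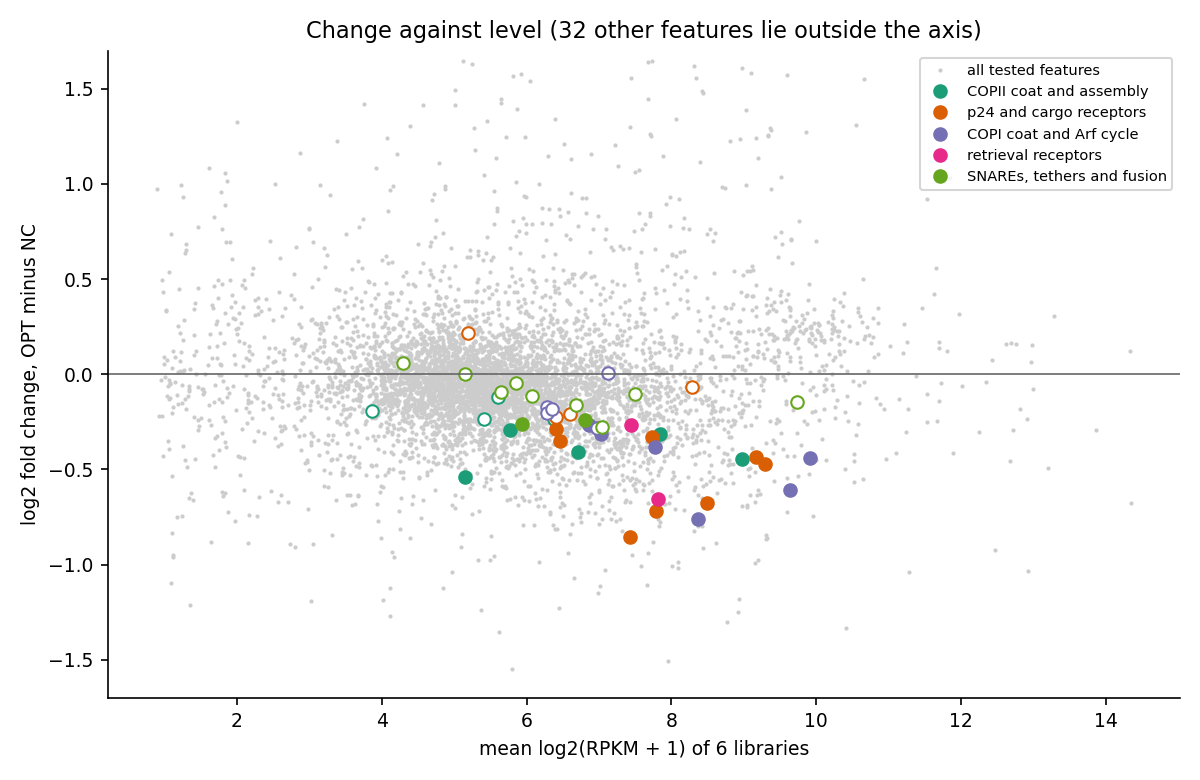
Log2 fold change, OPT minus NC, against mean log2(RPKM + 1) for all 5982 tested features (grey) and the 45 members by role, filled where they passed the test and open where they did not. The filled members lie between -0.86 and -0.24, EMP46 is the highest member at 0.22, and 32 other features lie outside the axis of 1.7.

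The genes of tethering and fusion moved least. Of 11 genes 2 fell and none rose, and the share that fell was near the 13.8% over all features. The median log2 fold change was -0.12, against -0.06 for all features. In 5 of the 11 every OPT library lay below every NC library, which 27.6% of all features showed. SLY1 encodes the Sec1/Munc18 protein that works with the Golgi SNARE Sed5. It stood at 64, 63.6 and 71.3 RPKM in NC and 54.3, 54.7 and 56.1 in OPT (log2 fold change -0.26, adjusted p = 0.0358). BET1, a vesicle SNARE, stood at 116, 125 and 120 RPKM in NC and 104, 99.1 and 102 in OPT (log2 fold change -0.24, adjusted p = 0.0359). Neither call held with quantile normalization, with equal medians, without NC replicate 2 or without any 1 OPT library, and that of SLY1 also ended without NC replicate 1.

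The partners of Bet1 in the same SNARE complex did not pass. SEC22 stood at 144 ± 10.8 RPKM in NC and 119 ± 10.4 in OPT (log2 fold change -0.28, adjusted p = 0.077), BOS1 at 108 ± 6.10 and 96.5 ± 0.996 (-0.16, adjusted p = 0.127), and SED5 at 57.8 ± 1.36 and 56.0 ± 4.16 (-0.05, adjusted p = 0.67). SEC18 and SEC17, the ATPase that takes SNARE complexes apart and its adaptor, had log2 fold changes of -0.12 and -0.11 with adjusted p of 0.249 and 0.364. YPT1, the Rab GTPase of ER to Golgi transport and one of the most abundant members, stood at 825, 905 and 947 RPKM in NC and 820, 774 and 828 in OPT. Its groups overlapped (log2 fold change -0.14, adjusted p = 0.268). USO1, the long tether that acts with Ypt1, stood at 18.2 ± 2.12 and 19.0 ± 1.58 RPKM (adjusted p = 0.735). On the ER side, where COPI vesicles arrive, the tether gene DSL1 stood at 34.5 ± 2.09 RPKM in NC and 34.5 ± 0.426 in OPT, with an interval of the log2 fold change from -0.15 to 0.15, and the SNARE gene UFE1 at 50.8 ± 1.85 and 47.7 ± 3.00 (adjusted p = 0.377).

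The libraries of a strain did not all stand at the same level. NC replicate 3 was the highest of the 6 libraries in 32 of 45 members, and in 21.2% of all tested features. The median member of the cargo receptors lay 0.26 above the 6-library mean in NC replicate 3 and at 0.11 and 0.13 in the other NC libraries, while OPT libraries lay between -0.22 and -0.17. In the COPII genes it lay at 0.32 in NC replicate 3 and 0.12 and 0.06 in the other NC libraries. Genes of ER folding and the unfolded protein response moved in the same way, at 0.69 in NC replicate 3, 0.23 and 0.22 in the other NC libraries and between -0.39 and -0.34 in OPT. Without NC replicate 3 the same 23 members passed, and the median log2 fold change of the 45 was -0.23. In that fit 1956 features in all were called in either direction, against 1145 with every library.

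**Figure D4:**
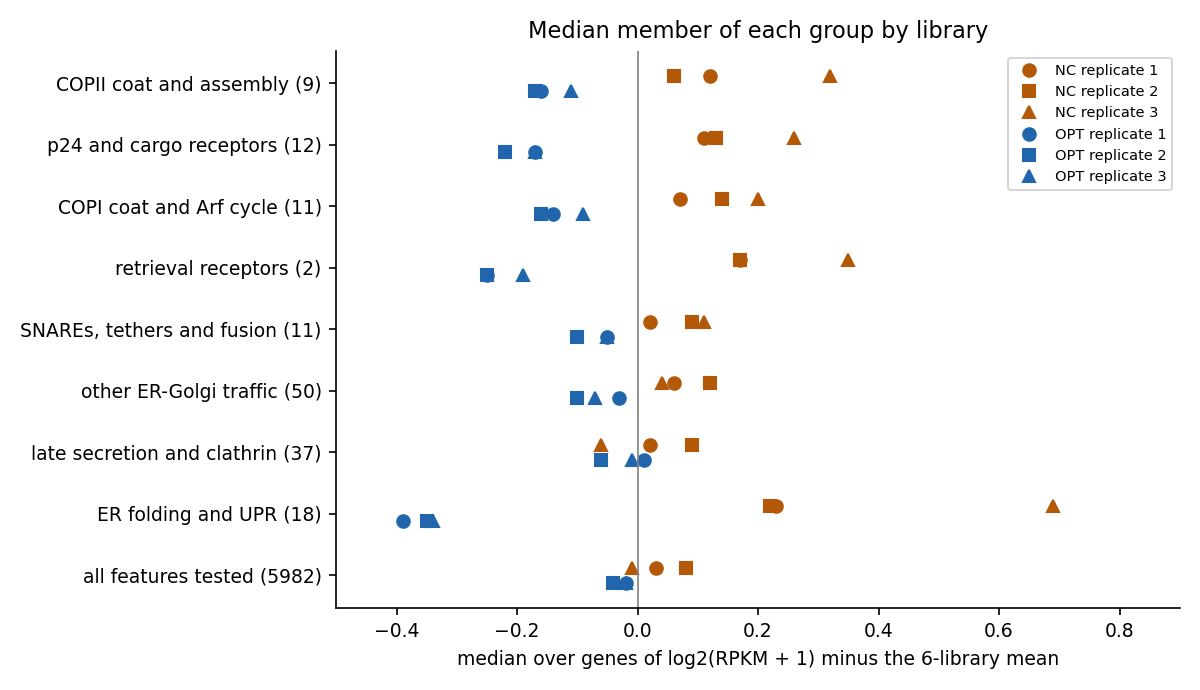
Median over the genes of each group of log2(RPKM + 1) minus the 6-library mean, for each library, with the number of genes in parentheses. NC (orange) and OPT (blue) are apart in every group except late secretion, most widely in ER folding and by the least in all features tested, where NC lies between -0.01 and 0.08 and OPT between -0.04 and -0.02.

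Gene length and level moved with the size of the change. Of the 21 members with a gene of up to 1000 nucleotides, 16 were lower in OPT, with a median log2 fold change of -0.38. Of the 24 longer members, 7 were lower, with a median of -0.21. Over all protein-coding features tested, 17.6% of 2239 short and 11.9% of 3522 longer genes were lower, with medians of -0.08 and -0.06. Across the 45 members the Spearman correlation of the log2 fold change was 0.42 with length and -0.57 with mean level, and across all 5761 protein-coding features it was 0.05 and -0.06. These correlations are across genes of the same 6 libraries, genes are not independent replicates, and short members were also the abundant ones (Spearman -0.74), so length and level cannot be told apart here. The part of either in the result was not tested. SFB2, SEC23, SLY1 and SEC27 are long genes that passed, and ERV14 and YPT1 are short genes that did not.

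**Figure D5:**
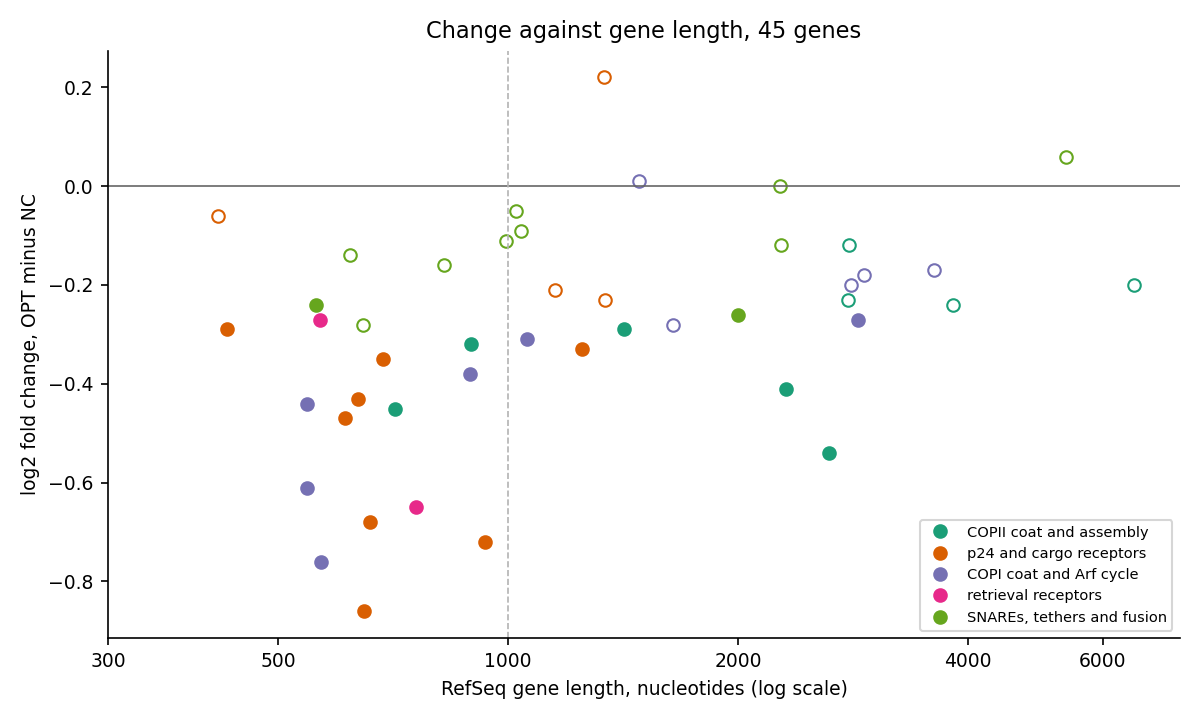
Log2 fold change, OPT minus NC, against RefSeq gene length on a log scale for the 45 members by role, filled where they passed the test, with a dashed line at 1000 nucleotides. Of 21 genes left of the line 16 passed, and of 24 genes right of it 7 passed.

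Other genes of the same route were compared from a fixed list of 50 that holds the TRAPP and COG tethers, the remaining p24 genes, packaging factors and further SNAREs. Of these 11 fell and none rose in the limma fit, against 13.8% lower and 5.38% higher over all features tested. At an unadjusted p under 0.05, 21 were lower and 2 higher, against 1438 and 640 of all 5982 features. The median log2 fold change was -0.12. SHR3, an ER factor that packages amino acid permeases, stood at 315, 292 and 340 RPKM in NC and 194, 203 and 208 in OPT (log2 fold change -0.64). YKT6, a SNARE, stood at 316 ± 25.7 and 217 ± 5.99 RPKM (log2 fold change -0.54), and YIP1, a membrane protein of vesicle formation, at 115 ± 2.41 and 85.2 ± 1.46 (-0.43). The other 8 genes that fell were ERP3, YIP3, SFT2, VPS74 and the TRAPP genes BET5, TRS20, TRS33 and TRS85. Their log2 fold changes lay between -0.40 and -0.21. The count of 11 was 7 with equal medians, 18 without NC replicate 3, 6 without NC replicate 2 and 6, 4 and 5 without OPT replicates 1, 2 and 3. In the same order, 962, 1956, 849, 483, 361 and 524 features in all were called in either direction, against 1145 without these changes.

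Later steps of secretion were represented by 37 genes of the exocyst, plasma membrane SNAREs, clathrin and its adaptors. Of these 2 fell and none rose in the limma fit, against 13.8% lower and 5.38% higher over all features tested. At an unadjusted p under 0.05, 5 were lower and 0 higher, against 1438 and 640 of all 5982 features. The median log2 fold change was -0.04. The 2 genes that fell were DRS2 and SEC14. DRS2, a phospholipid flippase of the late Golgi, stood at 32.6 ± 0.926 and 24.2 ± 0.348 RPKM (log2 fold change -0.42). SEC14, a phosphatidylinositol transfer protein, stood at 132 ± 3.30 and 114 ± 1.71 (-0.21). The call of SEC14 ended with both rescalings, without NC replicate 1 or 2 and without any 1 OPT library.

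Upstream, in the ER itself, 14 of 18 genes of folding and the unfolded protein response fell and none rose, with a median log2 fold change of -0.70. Over all features tested, 13.8% were lower and 5.38% higher. The count of 14 was 8 without OPT replicate 1 or 2. In those fits 483 and 361 features in all were called in either direction, against 1145 with every library. KAR2, the ER Hsp70 and a ligand of Erd2, stood at 567, 560 and 1002 RPKM in NC and 255, 274 and 302 in OPT, and its call ended without OPT replicate 1 or 2 (limma adjusted p up to 0.0533). SIL1, its nucleotide exchange factor, and EUG1, a protein disulfide isomerase, had log2 fold changes of -1.55 and -1.24. The median of each of the 5 roles among the traffic genes, from -0.46 for the 2 retrieval receptors to -0.12 for tethering and fusion, was smaller in size. Lists differ in their spread and in their number of genes, and the difference between lists was not tested.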

How the data were processed

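Total RNA was made into TruSeq RNA libraries, per the labels' protocols. The authors deposited normalized RPKM per gene and library with 2 decimals, per the file headers. The submitters' processing notes name CASAVA 1.8.0, Bowtie, TopHat and build R64; counting, strand use, multiply mapping reads and the normalization are not given in the sources used here. RPKM add up to nearly the same total in every library, so they act as shares. A repeated ZWF1 row with shifted values and 3 emptied lines were left out.

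Multiplied by RefSeq gene length (R64), low values, those of 40 reads or fewer, fell on multiples of a common step (tolerance 0.15 reads) for 98.8 to 100.0% of the 83 to 136 values per library, against a median of 28.4 to 29.1% over all steps tried. The step gave the depth on protein-coding genes and was used for description only. No member overlapped another RefSeq gene.

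log2(RPKM + 1) was fitted, for features whose mean reached 1 RPKM, with limma 3.58.1 (R 4.3.3, lmFit, eBayes with trend, two-sided), OPT against NC, with Benjamini-Hochberg adjustment over all features tested. Fold changes are on that scale. Both cdt-1 rows were fitted but never counted. The 6 ratios between related genes were tested by exact permutation. In 10 simulated sets of 5984 features with 200 changed, the fit recovered 88.5% of log2 changes of 1 and 57.4% of changes of 0.5, and 4.9% of calls were false; the simulated noise was independent between features. Python 3.11.15, numpy 2.4.6, pandas 2.3.3, scipy 1.17.1 and matplotlib 3.10.9 were used.

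The members, lists, pairs and tests were chosen with earlier results of these data known. All members are named; in other lists the 3 called genes of largest change with a mean of 5 RPKM or more are named with values (2 where 2 were called), and the further genes of the list of 50 were named after their values were seen. SEC4 of the late secretion list was not analysed here. Alternatives changed the pseudocount (0.1), the filter (none, or 10 RPKM), the scaling (quantile normalization, equal library medians), the prior (no trend), the weights (arrayWeights) or the libraries (each left out once).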

Additional observations from a re-analysis of the deposited data

How the results depend on the processing

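Changing the pseudocount to 0.1, the filter to none or 10 RPKM, or the prior to one without a trend left the call and direction of all 45 members as they were. With quantile normalization 14 members were lower (median log2 fold change -0.19), with equal medians 9 (median -0.21) and with arrayWeights 25. In the same order, 1022, 962 and 1688 features in all were called in either direction, against 1145 without these changes. The arrayWeights fit gave NC replicate 3 a weight of 0.224 and the other libraries 0.703 to 2.09. Leaving out 1 library gave 5 to 23 members lower, a median of -0.29 to -0.23, and 361 to 1956 calls over all features, against 1145. Without an OPT library fewer features passed in all, and the cause was not tested. None of these fits gave a higher member.

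The list of 50 other traffic genes had 7 lower with equal medians, 19 with arrayWeights and 4 to 18 without 1 library. The late secretion list had 1 lower with quantile normalization, 1 with equal medians, 4 with arrayWeights and 1 to 4 without 1 library. The ER folding list had 8 to 14 lower without 1 library. Over all features, 1022 were called in either direction with quantile normalization, 962 with equal medians and 1688 with arrayWeights. Without 1 library 361 to 1956 were called, against 1145 without these changes.

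Members that did not pass changed sign near 0. ERV14 and SED5 stood at 0.01 and DSL1 at 0.03 with quantile normalization; SED5 stood at 0.01 and DSL1 at 0.06 with equal medians; GLO3 stood at -0.01 and USO1 at -6.24e-05 with arrayWeights. Without 1 library GLO3 ranged from -0.01 to 0.03, USO1 from -0.04 to 0.12 and DSL1 from -0.05 to 0.03.

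No paired analysis was possible because the labels and columns carry no replicate numbers. Members that did not pass with 3 libraries a strain are not shown to be unchanged.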
